A study of Arabidopsis thaliana with 6 samples.

Results

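STZ (AT1G27730), PUB19 (AT1G60190) and WRKY53 (AT4G23810) are 3 stress-regulator genes of Arabidopsis thaliana, followed here through 3 h and 24 h at 4 °C. They were taken by name, as the probe sets annotated to these genes, and chosen by the MAS5 signal itself, for an early rise and later return over the 6 arrays. Each had 1 probe set, so they are 3 of the 13356 genes with an annotated probe set, and all 3 were among the 8473 such genes bright enough to be tested. Because the time course chose them, their changes in the cold are given as a description with no test. STZ and PUB19 were 15.9-fold to 21.5-fold higher at 3 h than at 0 h in each genotype. WRKY53 did not show the early rise for which it was listed: its signal stayed within 48.8 to 95.5 on all 6 arrays, close to the floor used here.

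Whole seedlings aged 2 weeks were raised on sucrose medium (2%) with days of 16 h light and 8 h dark, and 1 ATH1 array was hybridised for each of 6 conditions. These were the wild type (Columbia-0) and lcbk1-2, labelled a knock-out mutant of the same ecotype, each sampled before cold at 22 °C, called 0 h, and then at 3 h and 24 h in the cold at 4 °C. LCBK1 is a kinase that phosphorylates the long-chain bases of sphingolipids. Conditions were not replicated and the labels leave pooling of plants unstated, so precision is limited throughout by there being 6 arrays. No array was made from seedlings held at 22 °C to 3 h or 24 h. In changes to or from 3 h, cold therefore cannot be told apart from time of day. By the labelled times, 24 h falls at the clock time of 0 h, and there cold cannot be told apart from a further day of age.

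Values are MAS5 signals on a linear scale that the authors had scaled to a common trimmed mean, of 500.1 on each array. The median signal lay between 144 and 171. Signals below a floor of 65.9, the 35th percentile of all values, were set to the floor before log2 values were taken. Hybridisation controls were 2.21-fold brighter on the wild-type array of 0 h than the median of the others, against 0.854 to 1.08 times on the rest. That array is the starting point of each wild-type change below, and the lcbk1-2 0 h array, at 0.988 times, that of each mutant change. Of the 6 leaf markers listed, 3 had an annotated probe set (RCA, PORB and LHCB4.2), and their summed signal lay between 45651 and 66433. For the root list it was also 3 of 6 (PYK10, EXPA7 and EXPA18), with sums of 17267 to 22615. Leaf and root transcripts were thus both present on every array. Of the 6 reproductive markers listed, 1 had an annotated probe set, and it was too dim to be tested. By 3 h, 1 of the 3 leaf markers fell, PORB (-0.74 on the log2 scale, adjusted p = 0.0264 in limma), and 0 of the 3 root markers passed in limma, with 0 at an unadjusted p under 0.05. By 24 h LHCB4.2 fell (-0.995, adjusted p = 0.00242 in limma), while RCA was at -0.02 and PORB at 0.04 without passing. Of the root markers EXPA7 (-0.54) and EXPA18 (-0.49) fell by 24 h, and PYK10, at -0.06, did not pass. Over all tested features, 7.88% were called lower at 3 h and 28.6% at 24 h. The part of these marker changes in those of STZ and PUB19 was not tested. In whole seedlings, fewer cells of a type and less RNA per cell cannot be told apart. LCBK1 itself had 0 annotated probe sets, and the genotypes were taken from the labels.

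Plants respond to many stresses with a first wave of transcription factors and ubiquitin ligases, which act before the protective genes are fully switched on. STZ, also called ZAT10, is a zinc-finger transcriptional repressor induced by salt, drought, cold and oxidative stress. PUB19 belongs to the U-box ubiquitin ligases, which mark proteins for degradation, and is known as a negative regulator of abscisic acid and drought responses, together with its close relative PUB18. WRKY53 is a WRKY transcription factor best known as a regulator of leaf senescence, and it also takes part in defence.

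STZ stood at 317 in the wild type at 0 h, at 5030 after 3 h and at 1366 after 24 h at 4 °C. In lcbk1-2 its signal was 339, then 5741 and then 1795. Both 3 h arrays lay far above all others, and both 24 h arrays lay between those of 3 h and 0 h. At 3 h it was 15.9-fold above 0 h for wild-type seedlings and 16.9-fold for lcbk1-2. These were ranks 15 and 17 among the rises of 15658 tested features in the same genotype. By 24 h the signal was 3.68-fold below that of 3 h for the wild type and 3.20-fold for lcbk1-2. It ended 4.31-fold and 5.30-fold above 0 h, so the return was partial in both.

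PUB19 stood at 187 in the wild type at 0 h, at 3075 after 3 h and at 2047 after 24 h. In lcbk1-2 its signal was 224, then 4817 and then 3423. The order of the times was that of STZ in each genotype, with a much shallower descent. PUB19 was 16.5-fold higher at 3 h for the wild type and 21.5-fold for lcbk1-2, ranks 14 and 10 among the rises. At 24 h it was 1.50-fold lower than at 3 h for the wild type and 1.41-fold for lcbk1-2. After a day of cold it was still 11.0-fold and 15.3-fold above 0 h. A return was therefore slight for PUB19, which at 24 h held ranks 98 and 62 among all rises since 0 h.

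WRKY53 read 69.4 in the wild type at 0 h, 59.5 at 3 h and 95.5 at 24 h. In lcbk1-2 it read 59.0, 48.8 and 82.6. Only 3 of the 6 signals lay above the floor: the wild-type 0 h array and both 24 h arrays. In each genotype the 3 h array was the lowest and the 24 h array the highest, the opposite of an early rise and later return. On the deposited signals without the floor, the log2 change by 3 h was -0.22 (wild type) and -0.27 (lcbk1-2). From 3 h to 24 h it was 0.68 and 0.76, and from 0 h to 24 h 0.46 and 0.48. With the floor applied, it was -0.07 for the wild type at 3 h and 0 for lcbk1-2. The highest signal was 1.96 times the lowest, against 18.1 times for STZ and 25.8 times for PUB19. These values lie close to the floor and no detection call was used here, so no change is claimed for WRKY53.

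**Figure D1:**
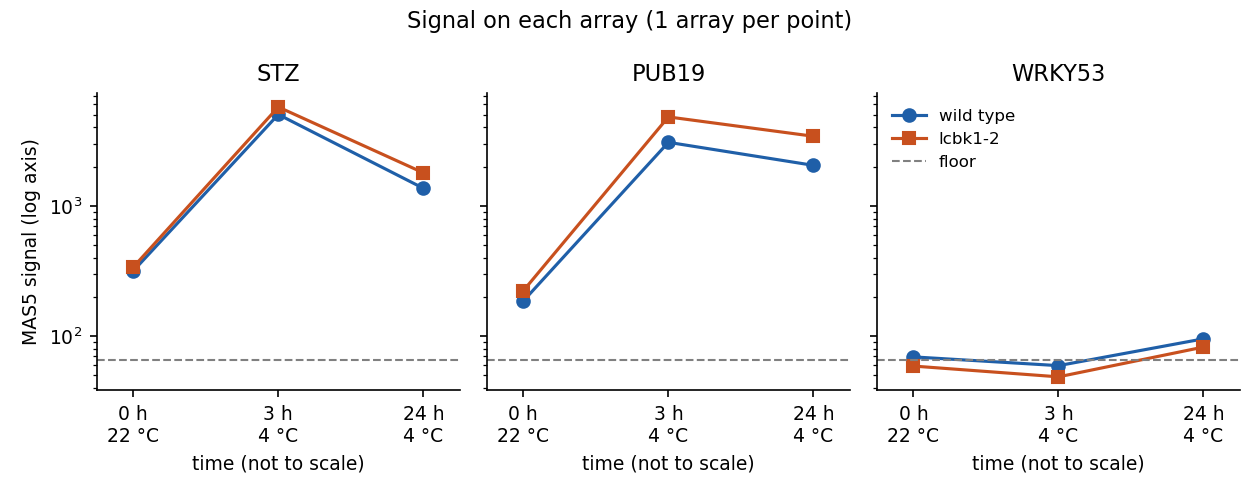
MAS5 signal (log axis) of STZ, PUB19 and WRKY53 on each of the 6 arrays, by time and genotype, with 1 array per point and the floor of 65.9 as a dashed line. STZ and PUB19 peak at 3 h in both genotypes and stay above 0 h at 24 h, while WRKY53 lies near the floor throughout and is lowest at 3 h.

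The depth of the return was then set beside that of other early risers. At 3 h, 504 of the 15658 features were at least 2-fold higher in both genotypes (3.22%). STZ and PUB19 were among them by the choice of the genes, and nothing is read from that. Of the 504, 267 (53.0%) were lower at 24 h than at 3 h in both genotypes, as STZ and PUB19 were, and 127 (25.2%) were at least 2-fold lower in both, as STZ was and PUB19 was not. At 24 h, 290 (57.5%) were still at least 2-fold above 0 h in both, including STZ and PUB19. On the log2 scale STZ kept 52.8% of its rise at 24 h in the wild type and 58.9% in lcbk1-2. PUB19 kept 85.5% and 88.9%. The median early riser kept 89.2% in the wild type and 81.7% in lcbk1-2, so PUB19 lay near the middle of this group. STZ fell back further than the median, with 66.5% and 61.5% of the group keeping more. A later return was part of the choice of the genes, so these places are a description only. In signal units STZ kept 22.3% and 27.0% of its gain and PUB19 64.4% and 69.7%.

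Scaling each array to the same median shifted the 24 h change of all tested features by 0.17 at the median, and the later descent of PUB19 was then smaller. Its change from 3 h to 24 h was then -0.42 (wild type) and -0.24 (lcbk1-2), against -0.59 and -0.49 as deposited. That of STZ was -1.71 and -1.43, against -1.88 and -1.68. The direction was kept for both genes.

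**Figure D2:**
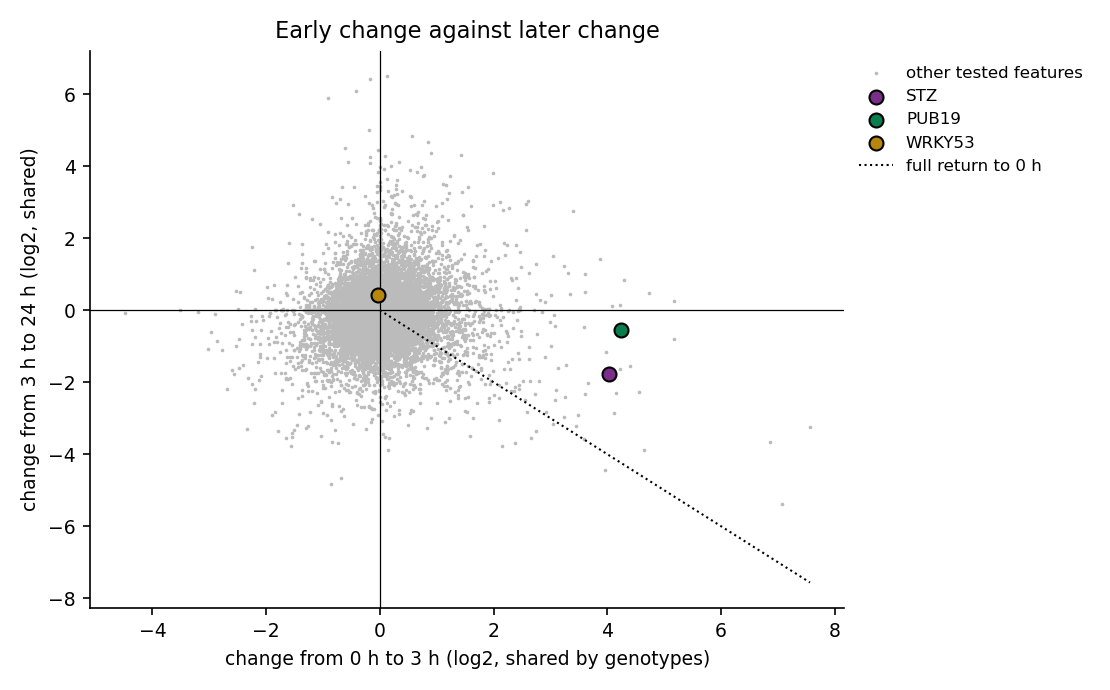
Change from 3 h to 24 h (y axis, log2) against change from 0 h to 3 h (x axis, log2), each shared by both genotypes, for all 15658 tested features, with STZ, PUB19 and WRKY53 coloured. STZ and PUB19 lie far to the right, between no later change and the dotted line of a full return to 0 h, and WRKY53 lies near the origin.

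The rule that chose the genes names a time course in each genotype, not a difference between genotypes. That difference was therefore tested, as a shift of lcbk1-2 from the wild type shared by the 3 times in limma's additive fit. The genes were taken with earlier results of these data known, so a choice free of this difference is not assured. STZ was higher in lcbk1-2 on each of the 3 pairs of arrays, by 0.10 at 0 h, 0.19 at 3 h and 0.39 at 24 h on the log2 scale. The shared difference was 0.23 (SE 0.12, 95% interval -0.06 to 0.51), which did not pass (adjusted p = 0.645 in limma). The interval on the linear scale ran from 0.961 to 1.43 times the wild type.

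PUB19 was also higher in lcbk1-2 at each time, by 0.26 at 0 h, 0.65 at 3 h and 0.74 at 24 h. The signals were 1.20, 1.57 and 1.67 times those of the wild type. At 3 h 2.84% of all tested features and at 24 h 1.91% were further above the wild type. The shared difference was 0.55 (SE 0.13, 95% interval 0.22 to 0.88), or 1.46 times the wild type. It had an unadjusted p = 0.0062 in limma, before adjustment over all features, and did not pass after it (adjusted p = 0.425 in limma). Over the alternatives tried, the adjusted p in limma lay between 0.147 and 0.845.

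WRKY53 was lower in lcbk1-2 at each time on the deposited signals, by -0.23, -0.29 and -0.21 on the log2 scale. With the floor the shared difference was -0.09 (SE 0.11, 95% interval -0.37 to 0.18, adjusted p = 0.835 in limma). Since 3 of its values were set to the floor, that SE can be too small.

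Across all features 2 passed for the shared genotype difference (0.0128%), both on probe sets with no annotation, and 8.25% had an unadjusted p under 0.05. Features with lcbk1-2 above the wild type at all 3 times made up 15.1%, the background for the direction shown by STZ and PUB19. Among the 504 early risers the median difference was 0.07 at 0 h, 0.18 at 3 h and 0.06 at 24 h, against 0.01 at 3 h over all tested features. STZ at 3 h lay near the middle of the early risers, with 48.6% of them higher, and at 24 h 18.5% were higher. For PUB19 5.75% were higher at 3 h and 4.37% at 24 h.

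**Figure D3:**
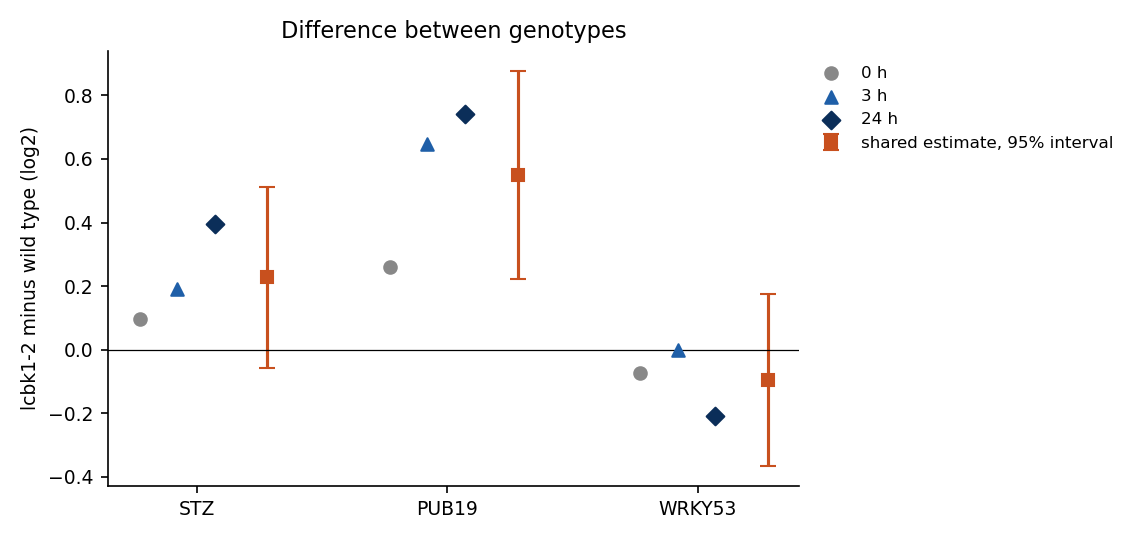
Difference of lcbk1-2 from the wild type (log2, floored signals) for each gene at 0 h, 3 h and 24 h (1 array against 1), with the estimate shared by the 3 times and its 95% interval before adjustment for multiple tests. The interval of PUB19, 0.22 to 0.88, lies above 0, while those of STZ and WRKY53 span it.

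Whether loss of LCBK1 alters the size of the cold change could not be tested, since the design leaves no residual degrees of freedom for it. For STZ the 3 h change was 3.99 (wild type) and 4.08 (lcbk1-2), a difference of 0.09 that 76.0% of tested features equalled or exceeded in size. For PUB19 the 3 h changes were 4.04 and 4.43, a difference of 0.39 equalled or exceeded by 27.3%. At 24 h against 0 h, they were 3.46 and 3.94 for PUB19 and 2.11 and 2.40 for STZ. The differences, 0.48 and 0.30, were equalled or exceeded by 22.4% and 42.2% of features.

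The other U-box ligase genes that could be tested differed among themselves in their time course. They are a small part of the family, so nothing is read about it as a group. Of 38 loci listed, 21 carry a PUB name in the RefSeq table, 8 of these had an annotated probe set and 6 were tested beside PUB19. By 3 h 2 of the 6 rose and 2 fell, against backgrounds of 9.28% of features higher and 7.88% lower. Their median change was -0.19, that of all features -0.03. Counting also the listed loci that have no PUB name in that table, 15 were tested beside PUB19. Of these 2 rose and 2 fell by 3 h, and 2 rose and 9 fell by 24 h. The 2 that rose by 24 h read 54.7 to 68.5 at 0 h, close to the floor, and their calls were kept in all 13 alternatives. Those of the 9 that fell were lost in 0 to 8 alternatives. The background at 24 h was 19.3% of features higher and 28.6% lower.

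PUB23, a ligase that together with PUB22 and PUB24 dampens immune signalling, rose by 3 h and fell again by 24 h. It read 156 at 0 h, 646 at 3 h and 181 at 24 h in the wild type, and 163, 627 and 212 in lcbk1-2. Its rise at 3 h was 2.00 on the log2 scale (SE 0.14, adjusted p = 9.7e-04 in limma), and its fall from 3 h to 24 h was -1.70 (adjusted p = 5.7e-04 in limma). Both 24 h arrays were near those of 0 h, and the change from 0 h to 24 h, 0.30, did not pass.

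PUB22 rose by 0.77 at 3 h (SE 0.16, adjusted p = 0.0275 in limma). PUB24 changed by -0.83 and PUB26, a ligase known to promote freezing tolerance by degrading the repressor MYB15, by -0.68, both past the threshold. PUB25, which shares that role, was at -0.19 at 3 h, and PUB43 also at -0.19, neither of which passed. The calls of PUB22, PUB24 and PUB26 at 3 h were lost when any 1 of the 6 arrays was left out, as well as under the lower floor of the 20th percentile. In all, they were lost in 9 of 14 alternatives for PUB22 and for PUB26, and in 8 of 13 for PUB24. That of PUB23 was lost in 5 of 14, among them the runs without the wild-type or lcbk1-2 array of 0 h or of 24 h, at 1.90 to 2.09.

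At 24 h against 0 h 4 of the 6 fell: PUB26 (-1.40, SE 0.14, adjusted p = 6.3e-04 in limma), PUB24 (-0.73), PUB43 (-0.72) and PUB25 (-0.57). The number that fell lay between 1 and 4 over the alternatives. That of PUB25 was lost without either array of 0 h or of 24 h, that of PUB43 without either array of 0 h or the wild-type array of 24 h, and that of PUB24 without either array of 24 h or the lcbk1-2 array of 0 h. Without the filter on low features all 3 were lost, and PUB26 alone passed in every alternative run. The background was 28.6% lower and 19.3% higher, and the list's median was -0.64, against -0.11 over all features. Under median scaling 2 of the 6 were higher (PUB22 and PUB23) and 2 lower, and the share of higher calls over all features moved from 40.3% to 55.2%. Between 3 h and 24 h PUB23 and PUB26 fell, against a background of 21.2% lower. There the call of PUB23 was kept in all 14 alternatives and that of PUB26 lost in 5 of 14. The number that fell lay between 1 and 4. PUB22 and PUB23 did not pass at 24 h against 0 h, at 0.31 and 0.30.

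**Figure D4:**
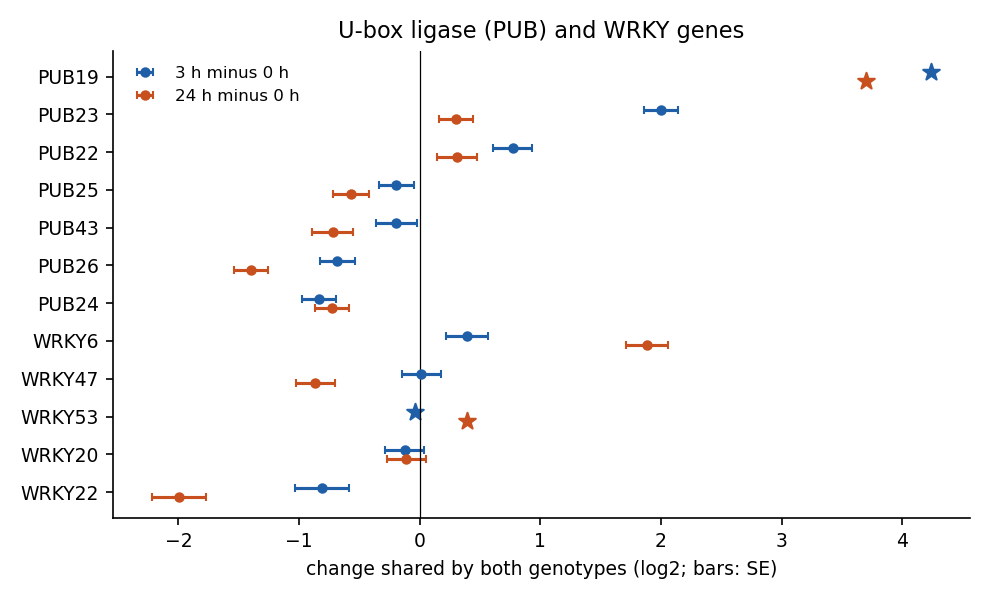
Changes shared by both genotypes (log2) from 0 h to 3 h and from 0 h to 24 h for the U-box ligase and WRKY genes with a tested, named probe set; bars are SE from limma, and stars mark PUB19 and WRKY53, given without error since they were chosen for this pattern. PUB19 and PUB23 lead at 3 h, and at 24 h PUB23 is back near 0 while PUB19 is not.

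The WRKY family has 67 named loci in the RefSeq table, of which 6 had an annotated probe set and 4 were tested beside WRKY53. At 3 h, 0 of the 4 passed in limma and 1, WRKY22, had an unadjusted p under 0.05, with a change of -0.81 (adjusted p = 0.0562 in limma). Under quantile normalization, limma-trend and a floor at the 50th percentile that call passed. At 24 h, 1 rose and 2 fell, against backgrounds of 19.3% of features higher and 28.6% lower. With 4 genes, nothing is read from these counts. WRKY6, a factor of senescence and defence, read 182, 276 and 816 in the wild type and 251, 284 and 763 in lcbk1-2, so the rise came after 3 h (1.88 against 0 h, SE 0.18, adjusted p = 4.4e-04 in limma). WRKY22, which acts downstream of a MAP kinase cascade in immunity, changed by -1.99, and WRKY47 by -0.87, both past the threshold. WRKY20 did not pass, at -0.11. The median of the 4 at 24 h was -0.49, that of all features -0.11. Without the filter on low features the calls of WRKY22 and WRKY47 were lost, and the change of WRKY22 was -1.13 once the floor was raised to the 50th percentile. That of WRKY47 was also lost without the wild-type array of 0 h or the lcbk1-2 array of 0 h or of 24 h, and the number called lower lay between 0 and 2 over the alternatives.

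In the senescence list 2 of 12 loci had a tested probe set. These were WRKY6 and SAG101, a lipase-like protein of defence signalling, which did not pass at 3 h (0.18) or at 24 h (-0.11). Of 31 loci listed as induced quickly by many stresses, 2 were tested, both calmodulin-like calcium sensors. CML38 read 187, 2032 and 230 in the wild type and 272, 3114 and 484 in lcbk1-2. It rose by 3.48 at 3 h (SE 0.17, adjusted p = 3.3e-04 in limma) and then changed by -2.91, a deeper return than that of STZ or PUB19 in these values. The call at 3 h was lost in 5 of 14 alternatives, among them the runs without the wild-type or lcbk1-2 array of 0 h or of 24 h, at 3.33 to 3.63. CML38 was still 0.56 above 0 h at 24 h (adjusted p = 0.0377 in limma), a call lost in 8 of 14 alternatives. CML37 did not pass at 3 h (0.55) and rose by 1.53 at 24 h, from signals of 46.1 and 45.8 at 0 h that were set to the floor. That call was lost without either array of 24 h and without the filter on low features, and over the fits that left out 1 array the change lay between 1.05 and 2.02. The shared difference of lcbk1-2 from the wild type was 0.74 for CML38 and 0.65 for CML37, against 0.55 for PUB19. Both had an unadjusted p under 0.05 in limma, and neither passed after adjustment. The zinc-finger list held 17 loci, of which 8 carry the listed name in the RefSeq table, and among these only STZ had an annotated probe set. Of the loci without that name 2 were tested, and 0 of them passed at 3 h in limma, with 0 at an unadjusted p under 0.05. By 24 h 1 of the 2 fell, by -0.72, against a background of 28.6% lower. In 5 further lists, of abscisic acid signalling, MAP kinases, touch and wound markers, and the partners of STZ and PUB19 and of WRKY53, no locus had an annotated probe set, and these genes were not analysed here.

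The genes whose course was most like each of the 3 were found by the Euclidean distance between log2 values, centred on each gene's mean, over the 6 arrays and 8472 other annotated genes. For STZ the nearest was AT4G27657, at a distance of 0.71. It was below the floor at 0 h in both genotypes, read 1131 and 1707 at 3 h and 467 and 490 at 24 h, the wild type first. AT4G27652 followed at 0.72, with 197, 3868 and 837 in the wild type and 318, 5109 and 970 in lcbk1-2. The next were AT1G70420 at 0.84, AT3G23170 at 0.89 and AT3G28270 at 0.92. All 5 peaked at 3 h and stood above 0 h at 24 h in both genotypes, which follows from their choice by nearness to STZ.

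For PUB19 the nearest lay further off. AT3G28270 was at 1.04 and AT4G27657 at 1.19, both also on the list of STZ. AT3G52740, AT4G36010 and AT2G15020 followed at 1.40, 1.40 and 1.48. At 0 h AT3G28270 was below the floor in the wild type, at 58.6, and AT2G15020 in both genotypes, at 14.4 and 37.4. Their distances therefore rest in part on values set to the floor. AT4G36010 was higher at 24 h than at 3 h, at 2389 against 1876 in the wild type and 2800 against 1994 in lcbk1-2, so the nearest genes of PUB19 included some with no return. STZ and PUB19 were at 1.62 from each other. STZ was thus rank 7 from PUB19, and PUB19 rank 10 from STZ.

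The nearest genes of WRKY53 were higher by a little at 24 h alone. BOB1, a chaperone-like protein needed for development and heat tolerance, was closest at 0.10. Its signals, 845, 788 and 1142 in the wild type and 774, 738 and 996 in lcbk1-2, were all well above the floor. AT4G16100, AT1G63730, AT1G49260 and AT4G19890 lay at 0.10 to 0.12, the last 3 of them at the floor on 3 or 4 arrays. For a course this flat a short distance says little, since any gene with small changes is near.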

How the data were processed

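Biotin-labelled target from 6 µg of total RNA was hybridised to Affymetrix ATH1 arrays, 1 per condition, per the labels' protocols. The submitters' processing notes name MAS5 (version and settings: not given in the sources used here), and the table holds the intensity that the authors deposited for each probe set on each array. Its values are linear and share a 2% trimmed mean.

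Of 22810 features, 64 were controls and were left out. The rest were named from the platform annotation and the RefSeq gene table (TAIR10.1): 13513 had 1 gene, 503 several and 8730 none. For genes with several probe sets the brightest was kept, leaving 22589 features. The 15658 that exceeded the floor on 2 or more arrays were tested on the log2 scale in an additive model of genotype and time (limma 3.58.1, R 4.3.3), two-sided, Benjamini-Hochberg adjustment over all tested features and a threshold of 0.05. The fit left 2 residual degrees of freedom, so its spread holds array error together with any genotype difference in the cold response, not the spread between replicates. Changes within a genotype, of 1 array against 1, have no test. The fit was tested on simulated data.

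Alternatives were other floors, none, median scaling, quantile normalization, the mean over probe sets, no filter, limma-trend and leaving out each array. The genes and lists were chosen with earlier results of these data known. Named list genes were all tested members, or the 6 with the largest change at 3 h; loci whose listed name the RefSeq table does not carry were counted but not named. For each of the 3 genes the 5 nearest were named. No sequences were used here.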

Additional observations from a re-analysis of the deposited data

How the results depend on the processing

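The additive fit compares the genotypes within each time, and the labels give no replicate numbers for a further block. The rise of STZ and PUB19 by 3 h moved by less than the residual SD of the fit in either genotype under median scaling and quantile normalization. The alternatives for the floor and the probe sets could not move it. Each gene has 1 probe set, and all its signals lay above every floor tried, the highest being 158. Of 102 recomputed changes of the 3 genes, 83 moved by less than that SD and 19 by more. Among changes of at least 2-fold 0 reversed, but shifts of this size could not have reversed them, so nothing is read from that. The 83 include those of STZ and PUB19 that could not move. Under median scaling their changes to 24 h, from 0 h or from 3 h, all moved by more than the SD. Under median scaling, the 24 h against 0 h changes were 2.29 and 2.60 for STZ, 3.64 and 4.13 for PUB19 (wild type, then lcbk1-2) and 0.65 for WRKY53 in the wild type. The changes from 3 h to 24 h were then -1.71 and -1.43 for STZ and -0.42 and -0.24 for PUB19. Under the 20th-percentile floor, as well as with none, WRKY53 changed by -0.22 and -0.27 at 3 h and by 0.68 and 0.76 from 3 h to 24 h, and in lcbk1-2 by 0.48 from 0 h to 24 h. With a floor at the 50th percentile WRKY53 could not be tested, having too few arrays above it.

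The shared genotype difference of STZ lay between 0.14 and 0.29, that of PUB19 between 0.45 and 0.69 and that of WRKY53 between -0.24 and -0.04 over all alternatives, and none of them passed in any. The count of features called for it, 2, was 24 in limma-trend. It was 0 in limma with floors at the 20th and 50th percentile, no floor and no filter, beside 1115 to 1483 at an unadjusted p under 0.05. Leaving out an array gave 0 to 0, beside 848 to 1062.

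The counts of features called in the time contrasts, the background for the family genes, were 2687 at 3 h, 7488 at 24 h and 5329 from 3 h to 24 h. At 3 h the count was 1018 with a floor at the 20th percentile, 1548 with no floor and 124 with no filter. Without a filter it was 3585 at 24 h and 1584 from 3 h to 24 h. Leaving out 1 array leaves the fit with 1 residual degree of freedom, and the count then ranged from 0 to 486 at 3 h, from 3866 to 6541 at 24 h and from 1087 to 3945 from 3 h to 24 h. At 3 h, leaving out the 0 h array gave 24 (wild type) or 3 (lcbk1-2), leaving out the 3 h array 486 or 248, and leaving out the 24 h array 0 in limma for either genotype, beside 4855 at an unadjusted p under 0.05. The share of higher calls from 3 h to 24 h, 37.8%, was 48.7% under quantile normalization and 58.4% under median scaling. The number of arrays and the nearness of WRKY53 to the floor limit what these data can show.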
